A study of Mus musculus with 4 samples.

Results

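Grainyhead-like factors, epithelial splicing regulators and epithelial surface genes were described in terminal end buds, the swollen tips from which mammary ducts grow at puberty, with and without deletion of Ovol2. The set held 9 genes taken by name: the transcription factor genes Grhl1, Grhl2 and Grhl3, the RNA-binding protein genes Esrp1, Esrp2 and Rbm47, and the epithelial genes Epcam, Rab25 and St14. Each had 1 probe set annotated to it alone, so 9 of the 35556 probe sets, or 9 of 19938 named genes, were members. All 9 passed the filter on low values, and every array of every member lay above the filter level of 7.97 on the log2 scale. The measurements came from 4 single-colour Affymetrix whole-transcript arrays of female C57/BL6 mice.

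Control arrays (n = 2) carried end buds of Ovol2flox/+ mice, pooled from 2 mice per array. The protocol allows controls with or without K14-Cre, whereas the sample characteristics list none with Cre. Knockout arrays (n = 2) carried end buds of Ovol2flox/-;K14-Cre mice, pooled from 3 mice per array. All 4 pools thus shared 1 floxed allele, and the knockouts had a null second allele where the controls had a wild-type one. K14-Cre is driven by the keratin 14 promoter. Which epithelial cells of the end buds carried the deletion was not measured here. The number of mice pooled, the null allele and, by the sample characteristics, K14-Cre all went with the knockout group. Their parts and that of the conditional deletion cannot be told apart. The samples are labelled 4.5 weeks old, while the series text gives 24 to 25 days. The pools are called biological replicates in the labels. The limma p-values below set each difference against a spread between pools that was moderated across genes. In the reported fit a gene's own spread counted with 2 degrees of freedom, and the spread of genes at like level with 7.58.

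Grainyhead-like proteins are DNA-binding factors that keep epithelial sheets closed by activating genes of adherens junctions, tight junctions, desmosomes and surface barriers. Esrp1 and Esrp2 bind pre-mRNA and keep epithelial exons in transcripts such as those of Fgfr2 and Cd44. Ovol2, a zinc finger repressor, is known to hold mesenchymal genes such as Zeb1 off, and Zeb1 in turn is known to repress epithelial genes, Esrp1 and Grhl2 among them, through E-boxes. The comparison asked whether this epithelial layer of regulators and surface genes shifted in end buds of the conditional Ovol2 knockout, at an age chosen so that gland shape still differed little.

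The transcription start regions of members are shown because Zeb1 was higher on the knockout arrays (values below) and binds E-boxes. The RefSeq promoter table (GRCm38.p6, 250 bases before to 50 bases after the start) held 8 start regions for 5 of the 9 members, and Grhl2, Esrp1, Esrp2 and St14 were not matched. Sequences run 5′ to 3′ along the gene, and capitals mark the E-box letters CACCTG or their reverse complement CAGGTG.
Epcam promoter (chr17:87635729-87636028, plus strand): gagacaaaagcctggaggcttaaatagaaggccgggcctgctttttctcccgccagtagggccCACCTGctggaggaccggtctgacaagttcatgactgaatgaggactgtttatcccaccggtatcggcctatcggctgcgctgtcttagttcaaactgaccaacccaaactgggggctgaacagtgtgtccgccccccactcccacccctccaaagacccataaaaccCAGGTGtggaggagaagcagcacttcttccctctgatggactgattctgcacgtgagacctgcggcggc
Rab25 promoter (chr3:88548230-88548529, minus strand): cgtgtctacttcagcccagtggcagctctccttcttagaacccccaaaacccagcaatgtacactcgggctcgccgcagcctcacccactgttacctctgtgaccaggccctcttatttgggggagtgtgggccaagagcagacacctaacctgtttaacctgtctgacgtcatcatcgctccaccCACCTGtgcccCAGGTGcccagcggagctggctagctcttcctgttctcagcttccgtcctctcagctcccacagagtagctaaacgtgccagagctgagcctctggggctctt
Grhl3 promoter (chr4:135573583-135573882, minus strand): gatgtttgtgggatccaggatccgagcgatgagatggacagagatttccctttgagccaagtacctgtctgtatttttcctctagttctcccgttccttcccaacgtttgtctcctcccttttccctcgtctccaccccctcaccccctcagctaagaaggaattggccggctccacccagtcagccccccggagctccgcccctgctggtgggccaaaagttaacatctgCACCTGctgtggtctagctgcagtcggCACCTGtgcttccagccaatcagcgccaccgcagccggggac
Grhl1 promoter (chr12:24572037-24572336, plus strand): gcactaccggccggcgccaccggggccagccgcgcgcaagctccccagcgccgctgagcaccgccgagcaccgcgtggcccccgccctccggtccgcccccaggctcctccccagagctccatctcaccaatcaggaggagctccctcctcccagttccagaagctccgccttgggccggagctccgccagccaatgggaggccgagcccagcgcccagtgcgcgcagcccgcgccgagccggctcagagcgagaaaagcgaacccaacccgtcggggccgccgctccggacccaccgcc
Epcam held the E-box letters at 187 and 19 bases before the start, Rab25 at 64 and 53 bases before it, and Grhl3 at 19 bases before and 8 bases after it. Neither the 2 Grhl1 regions nor the 3 Rbm47 regions held these letters. Thus 3 of the 8 member regions had a match on either strand, against 20.2% of all 32851 regions of the same length. The Grainyhead core AACCNGTT was found in 1 member region, at 102 bases before the Rab25 start, and in 2.09% of all regions. The Ovol core CCGTTA was found in none of the 8 and in 2.76% of all. The 3 motifs did not overlap one another in these windows. A match is a description of letters and shows no binding.

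Of the 9 members, 1 rose in the knockout, none fell and 8 did not pass the test (limma, adjusted p under 0.05). Over all 11963 tested genes 6.29% rose, 4.45% fell and 10.7% passed in either direction. The count for the members is therefore near the background and is no result about them as a group. With 2 of 9 members at an unadjusted p under 0.05, Grhl1 and Esrp1, the share was 22.2%, beside 25.5% over all tested genes. The median log2 difference was -0.043 over the members and -0.022 over all tested genes, and the median size of the difference regardless of sign was 0.074 and 0.11. In 4 of the 9 members (Esrp2, Rbm47, Rab25 and St14) the gap between the 2 control arrays was at least as large as the difference between the groups. The same held for 4863 of the 11963 tested genes, a like share.

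**Figure D1:**
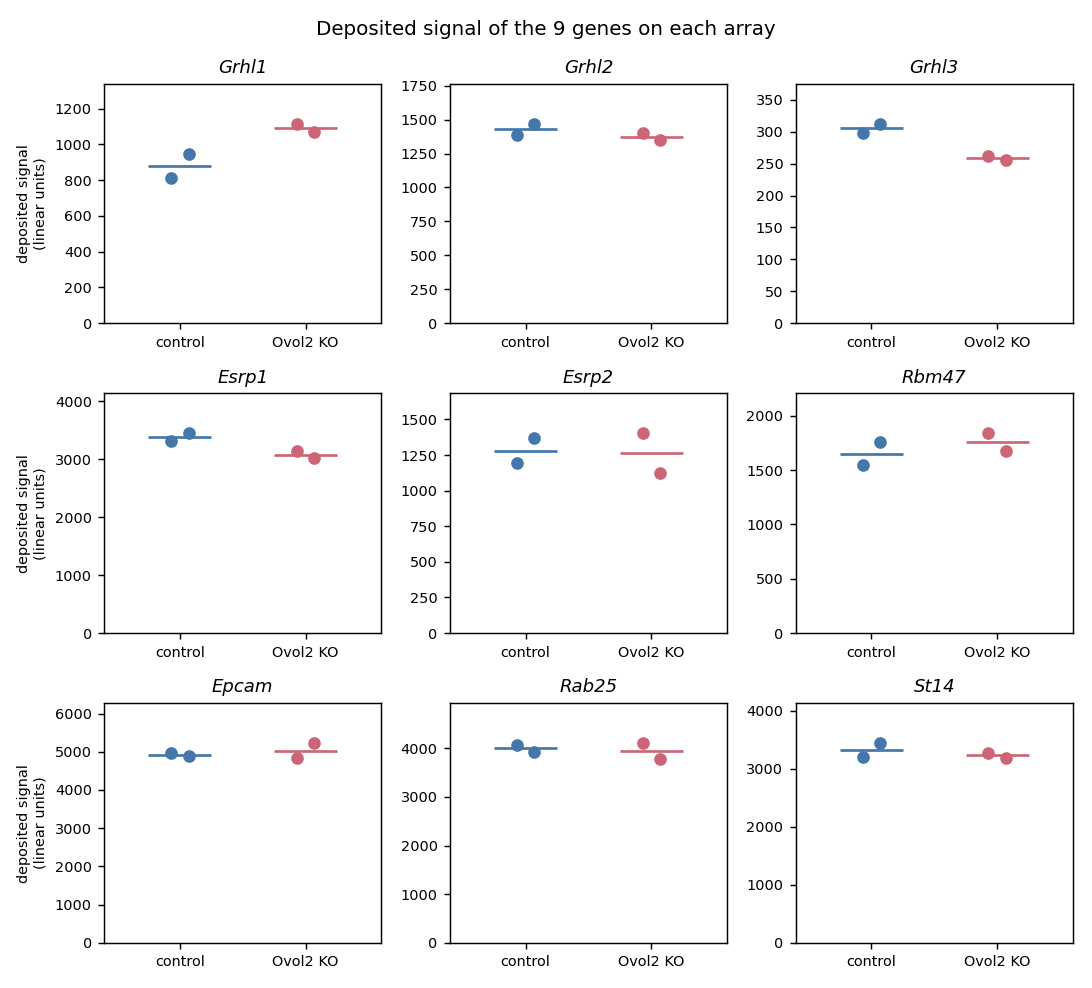
Deposited signal in linear units (y axes from 0) of each of the 9 genes on the 2 control arrays (blue) and 2 Ovol2 KO arrays (red), with points for arrays and bars for group means. Grhl1 lies higher on both knockout arrays, at 1116 and 1068 against 814 and 945, while Grhl3 and Esrp1 lie lower on both.

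Grhl1, a regulator of desmosomal cadherin genes in skin, was the member that rose. The deposited signal of Grhl1 (probe set 10394954) was 814 and 945 on the control arrays and 1116 and 1068 on the knockout arrays. Both knockout arrays lay above both control arrays. The normalized Grhl1 log2 values were 9.74 and 9.89 in controls against 10.09 and 10.11 in knockouts. That gave a 1.22-fold increase, a log2 difference of 0.28 ± 0.08 (SE, n = 2 arrays per group, 95% CI 0.11 to 0.46, limma adjusted p = 0.043). The call stood close to the threshold. Without control replicate 1, the lower control array, the difference was 0.21 and did not pass (adjusted p = 0.33). It was also lost with median centring (adjusted p = 0.41), with no filter (adjusted p = 0.070) and with a variance prior without a trend (adjusted p = 0.12). The median-centred fit gave a gene's own spread no weight, so scaling and error model changed together there.

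Grhl2, the Grainyhead factor best known for sustaining E-cadherin and claudin expression, read 1386 and 1471 on the control arrays against 1400 and 1346 on the knockout arrays. The deposited Grhl2 signals of the groups overlapped, and after normalization both knockout arrays lay slightly below both controls. Its log2 difference was -0.076 ± 0.06 (95% CI -0.21 to 0.059, adjusted p = 0.48).

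Grhl3, known for barrier formation in epidermis and for neural tube closure, read 298 and 313 in controls and 262 and 257 in knockouts. Both knockout arrays lay below both controls. The Grhl3 log2 difference was -0.27 ± 0.14 (95% CI -0.58 to 0.039), nearly as large as that of Grhl1 with the opposite sign, and it did not pass (adjusted p = 0.26). The Grhl3 signals lay above but near the filter level, a signal of about 235. No detection calls were used, so how far they stood above background is not known here.

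Whether the Grainyhead factors differed from one another was asked within arrays. The difference between the changes of Grhl1 and Grhl2 was 0.36 on the log2 scale, and between those of Grhl1 and Grhl3 it was 0.55. For Esrp1 against Esrp2 it was -0.090. Exact two-sided permutation tests of these 3 pairs gave p = 0.333, 0.333 and 0.667 (0.5, 0.5 and 0.667 after Benjamini-Hochberg adjustment). The smallest p that this test allows with 2 against 2 arrays is 0.333, so it could not have passed and shows nothing either way.

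Esrp1 had the smallest unadjusted p among the members that did not pass. The deposited Esrp1 signal was 3311 and 3447 in controls and 3140 and 3017 in knockouts, with both knockout arrays below both controls. The Esrp1 log2 difference was -0.14 ± 0.05 (95% CI -0.25 to -0.024, unadjusted p = 0.022, limma adjusted p = 0.12). The sign was negative in all 15 alternatives run, at -0.18 to -0.084, and in none did it pass (adjusted p from 0.054 to 0.41).

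Its paralog Esrp2 gave no such order. Esrp2 read 1194 and 1367 in controls against 1402 and 1124 in knockouts. The knockout arrays held both the highest and the lowest of the 4 values, so the groups overlapped fully. Esrp2 differed by -0.046 ± 0.09 (95% CI -0.25 to 0.15, adjusted p = 0.79), and the sign turned without control replicate 2 (0.023) and without knockout replicate 2 (0.078).

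Rbm47, an RNA-binding protein known as a cofactor of Apobec1 in C-to-U editing and for stabilizing transcripts, read 1545 and 1761 in controls and 1839 and 1673 in knockouts. The groups overlapped, with control replicate 1 lowest. The Rbm47 difference was 0.074 ± 0.07 (95% CI -0.077 to 0.23, adjusted p = 0.54), and without that array it was 0.0019.

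Among the surface genes, Epcam, an adhesion glycoprotein used as a defining marker of epithelium, showed no order between the groups. The Epcam signal was 4972 and 4880 in controls and 4831 and 5224 in knockouts, and the knockout arrays lay on either side of the controls. The Epcam difference was 0.031 ± 0.06 (95% CI -0.096 to 0.16, adjusted p = 0.77), and its sign turned with median centring (-0.020) and without knockout replicate 2 (-0.041).

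Rab25, a small GTPase of the Rab11 family in apical recycling endosomes, read 4068 and 3924 in controls and 4101 and 3772 in knockouts. The groups overlapped, since the knockout arrays held the highest and the lowest value. Rab25 differed by -0.025 ± 0.05 (95% CI -0.14 to 0.094, adjusted p = 0.80), and the sign turned without control replicate 1 (0.0037) and without knockout replicate 2 (0.022).

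St14 encodes matriptase, a membrane serine protease of epithelial cells. The St14 signal was 3203 and 3439 in controls against 3266 and 3191 in knockouts, a range that overlapped in the deposited values. After normalization both knockout arrays lay below both controls, the nearest by under 0.01 on the log2 scale. The St14 difference was -0.042 ± 0.05 (95% CI -0.16 to 0.073, adjusted p = 0.65).

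**Figure D2:**
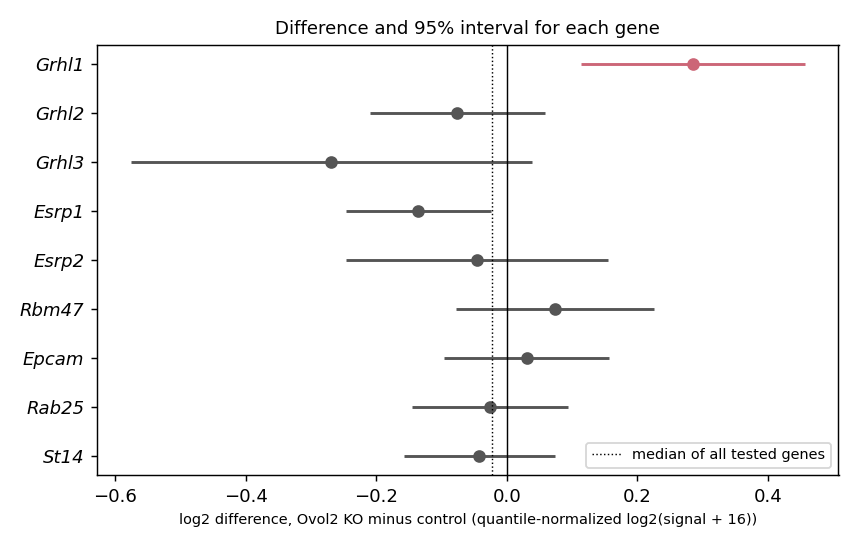
Log2 difference between Ovol2 KO and control (x axis, quantile-normalized log2(signal + 16)) for each of the 9 genes (y axis), with points for estimates and lines for limma's 95% intervals, n = 2 arrays per group. The dotted line is the median of all tested genes, -0.022, and Grhl1 (red), at 0.28, is the gene that passed.

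In normalized values, both knockout arrays lay above both controls for 1 member, Grhl1, and below them for 4, Grhl2, Grhl3, Esrp1 and St14. Over all tested genes 26.4% lay above, 29.9% below and 56.3% on either side. The members' 5 of 9 is near that background. The 95% intervals give the size that the 8 other members could still have had. For Epcam, Rab25, St14 and Grhl2 neither bound was farther from 0 than 0.21 on the log2 scale, and for Esrp1, Esrp2 and Rbm47 none was farther than 0.25. For Grhl3 the lower bound was -0.58.

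**Figure D3:**
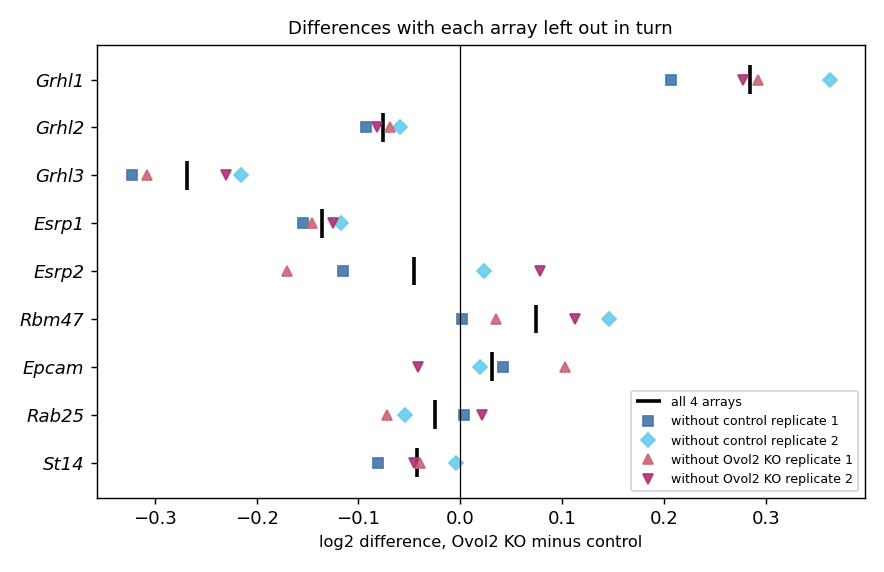
Log2 difference between Ovol2 KO and control (x axis) of each gene (y axis) over all 4 arrays (black bar) and with 1 array left out in turn (coloured symbols). Grhl1 stays above 0 between 0.21 and 0.36, while symbols of Esrp2, Epcam and Rab25 fall on both sides of 0.

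The arrays themselves differed in other cell types. Median signals lay between 252 and 272. Ovol2 itself read lower in the knockouts, with a log2 difference of -0.39 ± 0.16 that did not pass (adjusted p = 0.17). Both knockout arrays, at 7.85 and 7.73, lay under the filter level of 7.97, so the size may be understated, and the position of its probes against the deleted part is not known here. Luminal and basal keratins were present, and no list of markers particular to end buds was used. Krt8, a luminal keratin, read 12181 to 12680 over the 4 arrays, Krt18 10530 to 11236, and the basal keratins Krt5 and Krt14 2171 to 2794 and 2205 to 3907. Of 17 tested fibroblast markers 16 rose and none fell (median log2 difference 1.19), and their summed signal went from 13290 and 14210 in controls to 29920 and 36080 in knockouts. The summed signal of the 9 members was 20790 and 21550 in controls and 21360 and 20670 in knockouts, which overlap. Endothelial markers rose in 5 of 12 (median 0.56), and adipocyte markers in 5 of 9 tested (median 0.33, but 0.13 over all 14 on the array). The filter used the mean over all 4 arrays. Among the risers, fibroblast Lama2 (7.25 and 7.85 in controls) and endothelial Kdr (7.57 and 7.82) lay under its level in controls. Both were tested only through their knockout values. The defining adipocyte genes Adipoq, Lep, Cidec and Plin4 were under the filter, with log2 differences of 0.11, 0.016, -0.015 and -0.055, and Plin1 had -0.084 and did not pass. Of 4 tested lymphocyte markers 2 fell (median -0.60, but -0.37 over all 9 on the array). Cd79b fell from 9.66 and 9.02 to 7.68 and 7.19, under the filter level in knockouts, and was tested through its control values. Under the filter were Ms4a1, Cd79a, Cd2, Cd3d and Cd3g, with log2 differences of -2.05, -1.78, -0.30, -0.13 and -0.095. In bulk end buds, fewer cells of a type and less RNA per cell cannot be told apart, and the part that the stromal share had in the members' values was not tested.

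Repressors of epithelial genes were read on the same arrays. Zeb1 rose (limma adjusted p = 0.00045), from log2 values of 7.31 and 7.92 in controls to 9.53 and 9.72 in knockouts, a fitted difference of 2.01 ± 0.18. Both controls lay under the filter level, and no detection calls were used, so the size is not exact: it was 2.10 with a pseudocount of 1, 1.78 with 64 and 1.70 without control replicate 1. Zeb2 rose by 0.70 ± 0.16 and Prrx1 by 0.66 ± 0.14, calls lost without control replicate 1 and without a trend. Snai2 fell by 0.39 ± 0.09, lost in the same fits, and Snai1 differed by 0.17 ± 0.14 and did not pass. Of the 7 tested genes of the 13 listed, 4 rose and 1 fell, beside fibroblast markers that rose in 16 of 17. Esrp1 and Grhl2, which Zeb1 is known to repress, had the log2 differences of -0.14 and -0.076 given above.

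Downstream genes of the Grainyhead factors differed on both sides of 0, with more of them below it. In a list of 19 epithelial genes known or thought to be bound by Grhl2, 1 rose, 2 fell and 16 did not pass, with a median of -0.087 and 13 of 19 lower. Over all tested genes the median was -0.022 and 55.7% were lower. The tight junction genes Cldn6 and Lsr fell by 0.24 ± 0.07 and 0.23 ± 0.06, and both calls were lost in 8 of 15 alternatives, among them each fit without a control array and the fit without knockout replicate 2. Prom2, a prominin of membrane protrusions, rose by 0.54 ± 0.06 (adjusted p = 0.0013), a call held in all 15 alternatives. The E-cadherin gene Cdh1 had a difference of -0.11 ± 0.05 (adjusted p = 0.22). Of 7 tested barrier genes linked to Grhl1 and Grhl3, none rose and 2 fell. These were Dsc2 (-0.29 ± 0.08) and Dsp (-0.23 ± 0.06), which encode desmosome proteins. The Dsc2 call was lost in 7 of 15 alternatives and the Dsp call in 5. Both were lost with median centring, without control replicate 2 and without knockout replicate 2, and Dsc2 also without control replicate 1.

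A list drawn up for relatives and partners of the Grainyhead factors went both ways. Of the 6 genes on it, 1 rose and 2 fell. Tfcp2l1, a CP2 relative, rose by 0.22 ± 0.06 (limma adjusted p = 0.035). Its call was lost in 7 of 15 alternatives. Among them were median centring (adjusted p = 0.56), each fit without a control array and the fit without knockout replicate 2. Lmo4, a LIM-only protein that partners Grhl3 in epidermis, fell by 0.31 ± 0.06 (adjusted p = 0.0080), a call lost without a trend. Fermt1, also on the list though it encodes a kindlin of integrin adhesions, fell by 0.53 ± 0.07 (limma adjusted p = 0.0016). The Fermt1 call held in all 15 alternatives.

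For the splicing branch, the table gives 1 value per probe set and no exon values, so the exon choices that Esrp1 and Esrp2 make were not measured. Of 13 genes whose transcripts they are known to splice, 2 rose, 2 fell and 9 did not pass. Enah, an actin regulator, rose by 0.61 ± 0.08 and the receptor gene Fgfr1 by 0.36 ± 0.06. Enah passed in all 15 alternatives, while the Fgfr1 call was lost without a trend (adjusted p = 0.080). Fgfr3 fell by 0.51 ± 0.11, a call lost without either control array and without a trend. Cd44, the hyaluronan receptor gene, fell by 0.24 ± 0.05. That call was lost in 4 of 15 alternatives, median centring and the fit without control replicate 1 among them. Fgfr2, the best known Esrp substrate, had a total level difference of 0.079 ± 0.06 (adjusted p = 0.42). Among 14 tested splicing regulators outside the family, 1 rose, none fell and the median was 0. The riser was Rbms3 (0.34 ± 0.07), lost with median centring, without a trend and without control replicate 1. Rbfox2, another of these regulators, had 0.14 ± 0.06 (limma adjusted p = 0.16). Fibroblast markers were higher on the same arrays by a median of 1.19, and their part in these values was not tested. The 2 tested partners of Rbm47, Apobec1 and Syncrip, did not pass, and A1cf and Rbm46 lay under the filter.

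Partners of the surface genes were measured too. Of 5 tested matriptase partners and relatives, 1 rose and 4 did not pass. The serine protease gene Tmprss2 rose by 0.72 ± 0.06 (adjusted p = 0.00041) and passed in all 15 alternatives. The matriptase inhibitor genes Spint1 and Spint2 differed by -0.0071 ± 0.06 and 0 ± 0.05, and prostasin, Prss8, by 0.094 ± 0.06. None of these passed. Of 4 Epcam partners, the tetraspanin gene Tspan8 rose by 0.36 ± 0.10 (limma adjusted p = 0.044). The Tspan8 call was lost in 6 of 15 alternatives, among them median centring, each fit without a control array and the fit without knockout replicate 2. The claudin gene Cldn7, whose protein binds Epcam, had -0.21 ± 0.06 (limma adjusted p = 0.053). It passed without knockout replicate 1, with a robust prior and with the replicate number as a block. Of 9 Rab11 family genes and effectors, none rose and 1 fell: Myo5b, the motor that moves Rab11 endosomes, by 0.35 ± 0.09 (limma adjusted p = 0.033). The Myo5b call was lost in 6 of 15 alternatives, among them median centring, each fit without a control array and the fit without knockout replicate 2. Rab11a itself differed by 0.033 ± 0.06.

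A list of 24 other epithelial surface and identity genes is the nearest neighbour of the members in kind. Of these, none rose, 4 fell and 20 did not pass, with a median of -0.048, close to the members' -0.043. The basal factor gene Trp63 fell by 0.36 ± 0.06, Lad1 by 0.35 ± 0.08, the integrin gene Itgb4 by 0.26 ± 0.07 and Klf5 by 0.22 ± 0.06. Each of the 4 calls was lost without control replicate 1, and the calls of Itgb4 and Klf5 also without control replicate 2. Those of Lad1 and Itgb4 were lost without knockout replicate 2 and that of Klf5 without knockout replicate 1. Of all 15 alternatives, the Trp63 call was lost in 3, Lad1 in 4, Itgb4 in 8 and Klf5 in 8. Trp63 was also on the list of basal and myoepithelial markers, most of which went the other way. Of those 13 genes 6 rose and 2 fell, with a median of 0.21. In an alternative chosen after seeing the data, deposited log2 values were centred on the 24 other epithelial genes in place of quantile normalization. There Grhl1 was 0.36 ± 0.09 (limma adjusted p = 0.025) and Esrp1 -0.084. The members' median was 0.025 and that of the 24 genes 0.011.

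**Figure D4:**
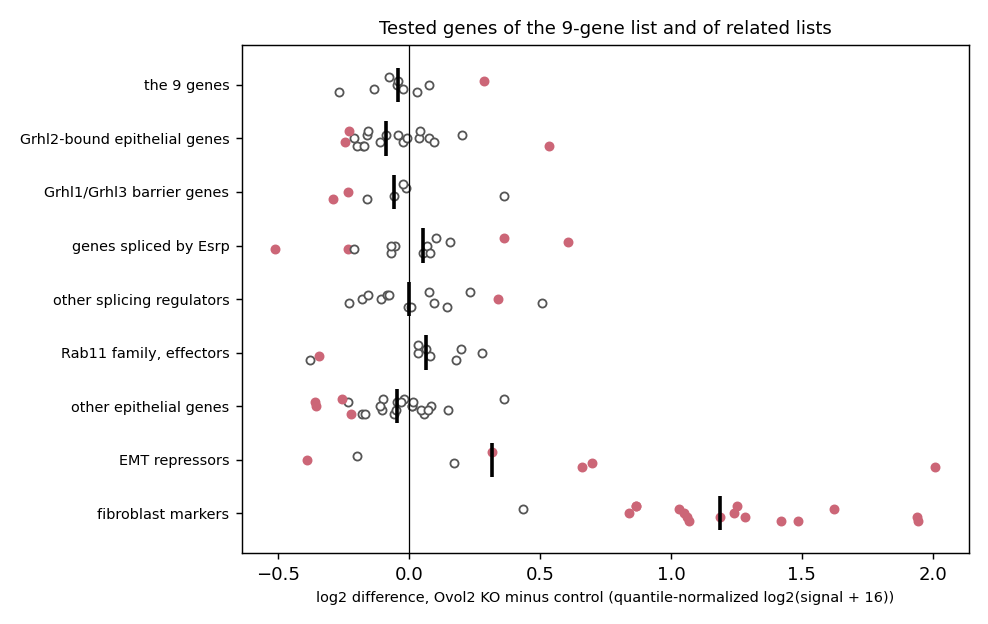
Log2 difference between Ovol2 KO and control (x axis) of each tested gene in the 9-gene list and in related lists (y axis), with red points for genes past the threshold, open points for the others and bars for list medians. The 9 genes and the other epithelial genes lie around 0 with medians of -0.043 and -0.048, and fibroblast markers have a median of 1.19.

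Across the 4 arrays, profiles were compared as the mean absolute difference of log2 values centred on each gene's own mean, over the other 11962 tested genes. This is a description over 4 arrays and shows no shared regulation. Values were not scaled to each gene's spread, so genes that varied little lie close together. Nearest to Grhl1 were Eps8, Adamts10 and Lrig1, at 0.0055 to 0.0088. The genes closest to Grhl2 were Calr, Gfpt2 and Dynll2, to Grhl3 Dnaaf5, Rmnd5b and Gga2, and to Esrp1 Ap5z1, Sh2b2 and H2aw. For Esrp2 they were Nipal4, Ralgapa2 and Naa16, for Rbm47 Ro60, Usp20 and Klhl15, for Epcam Mst1r, Pdxk and Sh3bgrl2, for Rab25 Clptm1l, Npr3 and Pusl1, and for St14 Ptpn11, Nectin1 and Sf1. Within the set, Grhl2 and St14 were the closest pair (0.019), followed by Grhl2 and Esrp1 (0.030), and Grhl1 and Grhl3 the farthest apart (0.28).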

How the data were processed

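The values deposited by the authors were linear intensities, 1 for each probe set on each array, all above 0. Affymetrix Expression Console 1.1.1 and PLIER 2.0 made them, per the submitters' processing notes, which give no settings. The genome build, background correction and normalization were not given in the sources used here, and detection calls were not used. Names came from the platform annotation (21789 with 1 symbol, 1621 with several, 12146 not listed), keeping the highest-mean probe set per gene. Values were log2(signal + 16), quantile normalized because array medians differed by 0.1006, above a limit of 0.1. Genes under the 40th percentile of the mean were left out. Groups were compared with limma 3.58.1 in R 4.3.3 (lmFit, eBayes with trend, two-sided, Benjamini-Hochberg over 11963 genes). The code was also run on simulated data with independent noise, each gene's variance set on the trend and changes planted in both directions. Gene variances on these arrays also spread around the trend, so that run does not vouch for single calls. Each ± gives the SE of a log2 difference (n = 2 arrays per group), and folds refer to log2(signal + 16). The number of arrays limits the precision. No batch is given.

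The members and lists were chosen with earlier results of these data known. Other named genes were a fixed set, up to 4 called genes per list with the largest differences, and the 3 nearest profiles per member. Skeletal muscle (0 of 4 tested called), epidermis (0 of 2), macrophage (1 of 7 fell), luminal (3 of 13 rose) and basal markers (6 of 13 rose, 2 fell) were also listed.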

Additional observations from a re-analysis of the deposited data

How the results depend on the processing

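The counts over all genes moved most. With median centring 480 genes rose and 273 fell, 0 members rose and the members' median was -0.073. That fit, like the fit on values as deposited, gave a gene's own spread no weight. Calls lost or gained there thus reflect more than the scaling. Without a trend 143 rose, 45 fell and 0 members rose, and with no filter 0 members rose. With arrays centred on the other epithelial genes, added after seeing the data, 1224 rose (82.8% of calls, against 58.6% in the reported fit) and 255 fell, and the members' median was 0.025. Leaving out 1 array in turn gave 320 to 1168 genes that rose, 156 to 1179 that fell, 0 to 1 members that rose and a members' median from -0.081 to -0.0038. The lowest counts came without control replicate 1 and the highest without knockout replicate 1. With the replicate number as a block 1170 rose and 1076 fell. The Grhl1 call held under that block (adjusted p = 0.0030). The samples share only a number: deviations of same-numbered arrays correlated at -0.196 over tested genes. Crossed numbers, added after seeing the data, gave 715 genes that rose, 488 that fell and 0 members that rose.

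Sign turned in 13 of 654 gene values. Epcam was -0.020 with median centring, and with 1 array left out it ranged from -0.041 (no knockout replicate 2) to 0.10. Esrp2 was 0.023 and 0.078 without control replicate 2 and without knockout replicate 2, in a range from -0.17 with 1 array left out, and 0.025 centred on epithelial genes. Rab25 was 0.0037 and 0.022 without control replicate 1 and without knockout replicate 2, in a range from -0.072, and 0.028 centred so. St14 was 0.0099 and Spint1 0.053 centred so, and Spint1 was 0.0034 as deposited, 0.057 without control replicate 2 and 0.043 without knockout replicate 2, in a range from -0.071. The causes were not tested. Of the other values 542 kept sign and side of the threshold, 92 lost the call and 7 gained it. With 1 array in a group the fit assumes that it varies like the other group. No detection calls were used, so how far dim genes such as Grhl3 stood above background is not known here.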
